A study of Mus musculus with 16 samples.

Results

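Cholesterol synthesis and uptake were followed through 27 genes in growing mouse oocytes. The genes were listed by name, and all 27 were found among the 25965 rows of the deposited RNA-seq table. They comprised 18 enzymes of synthesis, 5 genes of sterol sensing and 4 genes of cholesterol uptake and transport. The oocytes came from wild-type C57BL/6Babr mice (C57BL/6 in the sample labels) and were sorted by diameter into classes of 10–30 μm (mice at post-natal days 5–7), 40–45 μm (days 7–12), 50–55 μm (days 9–14) and 60–65 μm (days 13–16). Germinal vesicle (GV) oocytes, which are fully grown and still arrested in meiotic prophase, were taken at day 20. The 16 samples were 8 RNA-seq libraries of growing oocytes (2 a class, A and B), 1 GV column of RNA values, 6 libraries of reduced representation bisulphite sequencing (RRBS, 2 a class from 40–45 μm onward) and 1 library of post-bisulphite adapter tagging (PBAT, 60–65 μm). Each library was a pool of oocytes freed from ovaries by enzymes and picked by hand, and no group was treated or carried a mutation. Size classes therefore differ in age as well as in diameter.

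Cholesterol is built from acetyl-CoA through mevalonate, isoprenoid diphosphates, squalene and lanosterol, and it is sensed in the endoplasmic reticulum, where Scap carries the SREBP transcription factors towards activation and the Insig proteins hold Scap back. Cells can also take cholesterol up from lipoproteins and move it out of late endosomes. Oocytes are thought to depend on the surrounding granulosa cells for much of their cholesterol, so the question here was which steps of the pathway had RNA in the oocyte and how that RNA changed with growth.

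The levels were uneven along the pathway. RPKM, reads per kilobase of transcript scaled to library size, is a level per length, so genes can be set side by side. Averaged over the 8 libraries of growing oocytes, 5 members were above 10 RPKM, 16 lay between 1 and 10 RPKM and 6 were below 1 RPKM. Of all 10518 genes that reached at least 0.5 RPKM in 2 of the 8 libraries, 17.6% averaged above 10 RPKM. The 5 members were Insig1 (85 RPKM), Lbr (49.7 RPKM), Fdft1 (48.3 RPKM), Hmgcs1 (28.0 RPKM) and Scap (20.6 RPKM). They fall in different stretches of the pathway: Hmgcs1 makes HMG-CoA at its entrance, Fdft1 is squalene synthase, and Lbr is a sterol reductase that also anchors heterochromatin at the inner nuclear membrane.

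The lowest members were also enzymes. Ebp, a sterol isomerase, had from 0.0368 to 0.139 RPKM, which is 10 to 46 reads a library including GV. Mvk, mevalonate kinase, had from 0.146 to 0.423 RPKM in growing oocytes (41 to 180 reads a library including GV). These 2 genes missed the minimum of 0.5 RPKM, so 25 members were tested. Dhcr7, the reductase of the last step, passed the minimum with a mean of 0.477 RPKM. Its A libraries of the 3 smaller classes had 0.404, 0.322 and 0.328 RPKM and the B libraries 0.572, 0.606 and 0.590 RPKM. The gap between A and B of Dhcr7 in these classes was larger than any difference between its class means.

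**Figure D1:**
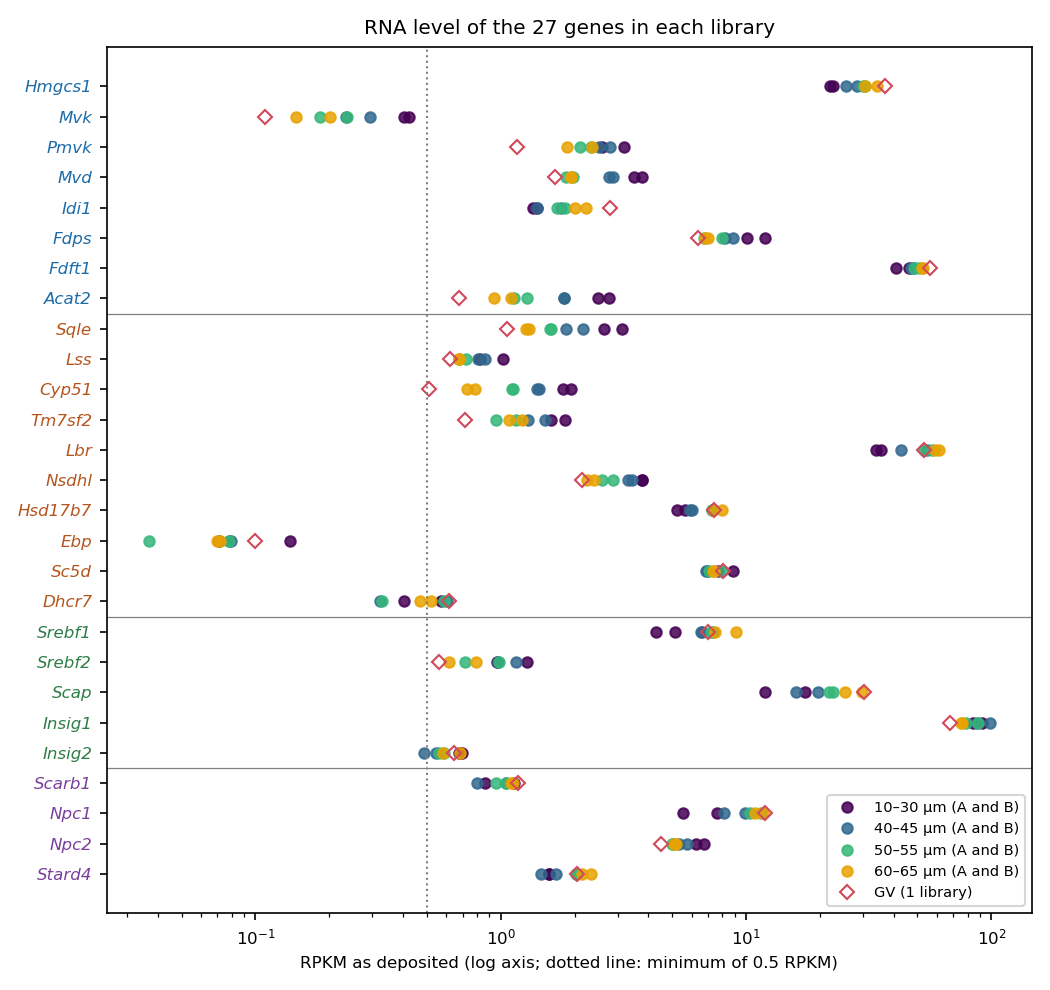
RNA level of each of the 27 genes (rows, grouped by role) in RPKM on a log axis, with 1 point per library coloured by size class and an open diamond for the GV library. Insig1, Lbr, Fdft1, Hmgcs1 and Scap lie furthest right, and Mvk and Ebp lie left of the dotted line at 0.5 RPKM in all libraries.

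The start regions of 4 members show motifs that recur in promoters of the pathway. RefSeq promoters (GRCm38.p6, from 250 bases before to 50 bases after a start) were matched by symbol for 21 of the 27 members; Fdps, Fdft1, Scarb1, Sqle, Npc1 and Stard4 were not matched. Hmgcs1 and Insig1 are printed as members of high level, and Mvd and Acat2 as members that fell. Capitals mark matches on either strand to TCACNCCAC (a form of the sterol regulatory element bound by SREBP), CACGTG (an E-box, the same on both strands), CCAAT (a box bound by NF-Y) and GGGCGG (a GC box bound by Sp factors). No match overlapped another in any of the 21 promoters.
Hmgcs1 (chr13:119690101-119690400, plus strand): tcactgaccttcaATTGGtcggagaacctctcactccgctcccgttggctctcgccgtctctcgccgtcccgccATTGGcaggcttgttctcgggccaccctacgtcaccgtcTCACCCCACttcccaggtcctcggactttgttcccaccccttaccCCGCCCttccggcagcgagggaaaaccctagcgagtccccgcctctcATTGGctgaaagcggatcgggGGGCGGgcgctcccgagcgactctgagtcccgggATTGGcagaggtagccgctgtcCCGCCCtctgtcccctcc
Insig1 (chr5:28071162-28071461, plus strand): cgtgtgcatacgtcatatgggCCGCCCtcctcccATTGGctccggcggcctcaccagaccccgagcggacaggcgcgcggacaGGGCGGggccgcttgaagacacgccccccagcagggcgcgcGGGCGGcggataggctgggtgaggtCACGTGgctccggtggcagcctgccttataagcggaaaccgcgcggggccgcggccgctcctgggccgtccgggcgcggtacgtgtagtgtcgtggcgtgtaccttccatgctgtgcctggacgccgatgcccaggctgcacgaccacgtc
Mvd (chr8:122443373-122443672, minus strand): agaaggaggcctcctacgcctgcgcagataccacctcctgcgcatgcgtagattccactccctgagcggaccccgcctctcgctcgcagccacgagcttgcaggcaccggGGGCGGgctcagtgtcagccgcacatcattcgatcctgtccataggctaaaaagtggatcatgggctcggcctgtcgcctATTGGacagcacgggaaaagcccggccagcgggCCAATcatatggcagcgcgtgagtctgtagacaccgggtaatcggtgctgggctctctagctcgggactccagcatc
Acat2 (chr17:12960676-12960975, minus strand): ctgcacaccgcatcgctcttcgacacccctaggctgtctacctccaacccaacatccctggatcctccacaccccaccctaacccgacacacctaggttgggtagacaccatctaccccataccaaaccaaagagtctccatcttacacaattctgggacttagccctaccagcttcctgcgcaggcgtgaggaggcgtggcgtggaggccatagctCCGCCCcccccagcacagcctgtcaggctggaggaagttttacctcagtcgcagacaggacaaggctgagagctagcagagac
TCACNCCAC was found in the promoter of Hmgcs1 and of no other matched member, against 1.22% of 16042 promoters. CCAAT was found in 17 of 21 members (81.0%) and in 38.8% of all promoters, and Mvk held the most copies, 5. GGGCGG was found in 18 members (85.7%) and in 47.1% of all promoters. CACGTG was found in Hsd17b7, Insig1, Sc5d and Scap (19.0%) and in 8.02% of all promoters. The promoter of Pmvk held none of the motifs, that of Acat2 held 1 GC box and no other motif, while that of Hmgcs1 held 4 CCAAT boxes and 3 GC boxes. The Pmvk window began at position 89459321, downstream of the gene start used for RNA and methylation (89459118). The Tm7sf2 window likewise lay wholly inside the gene so placed, so neither covers sequence before that start. All motif counts are matches of letters in a window, which show neither binding nor its absence.

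From 10–30 to 60–65 μm the members moved both ways, with 11 lower and 8 higher of the 25 tested. Among all genes tested in this comparison 31.9% were called lower and 31.4% higher, so 44% lower and 32% higher among members are to be read against a transcriptome in which most genes moved. The median log2 fold change of the 25 members was -0.16, and that of all genes -0.002; the members' median was -0.296 without 10–30 μm B and -0.101 without 10–30 μm A. The call is an adjusted p below 0.05 from limma on log2(RPKM + 0.1), in a fit of the 8 libraries, and fold changes are on that scale. With pools of cells, less RNA per oocyte and fewer oocytes with the RNA cannot be told apart. RPKM is a share of the library, so the amount per oocyte is not given. The labels do not say whether A and B came from separate animals, so the p-values measure the spread between these libraries.

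In the mevalonate and squalene branch 4 of 7 tested enzymes fell (31.9% of all genes) and 2 rose (31.4% of all genes). Acat2, the thiolase that joins acetyl-CoA units, had 2.77 and 2.50 RPKM at 10–30 μm, 1.81 and 1.81 at 40–45 μm, 1.28 and 1.13 at 50–55 μm, then 0.935 and 1.10 RPKM at 60–65 μm. No library of a later class reached the level of an earlier one for Acat2. Its log2 fold change was -1.30 ± 0.129 (SE, limma adjusted p = 6.26e-05), the largest fall among the members. Its neighbour and paralog Acat3 also went from 0.455 and 0.381 to 0.134 and 0.210 RPKM, and reads of the 2 similar genes may have been split between them in a way that cannot be checked here. Mvd, which makes isopentenyl diphosphate, had 3.50 and 3.75 RPKM at 10–30 μm and 1.94 and 1.93 RPKM at 60–65 μm (log2 -0.87 ± 0.0895, limma adjusted p = 7.39e-05). At 50–55 μm Mvd had 1.85 and 1.97 RPKM, about its level at 60–65 μm. Mvd overlaps Gm20388 on the opposite strand, which had 1.11 to 1.83 RPKM in growing oocytes, so its reads are uncertain if strand was not used in counting. Fdps, farnesyl diphosphate synthase, went from 11.9 and 10.1 to 7.0 and 6.82 RPKM (log2 -0.66 ± 0.136, limma adjusted p = 0.00309).

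Pmvk, phosphomevalonate kinase, was near the threshold. It had 3.17 and 2.58 RPKM at 10–30 μm and 1.87 and 2.36 RPKM at 60–65 μm, so its replicates spread widely (log2 -0.43 ± 0.162, limma adjusted p = 0.0463). Without 10–30 μm A its log2 value was -0.24 (adjusted p = 0.257, limma) and without 60–65 μm A it was -0.26 (adjusted p = 0.286, limma). The call was also lost without either library of the 40–45 and 50–55 μm classes (limma adjusted p from 0.0528 to 0.0614), with no minimum on RPKM (0.0779) and in a fit on the 2 size classes alone (0.0683). Mvk was outside the test. Its libraries had 0.403 and 0.423 RPKM at 10–30 μm and 0.146 and 0.201 RPKM at 60–65 μm, with no overlap, and in the fit without a minimum its log2 fold change was -0.91 ± 0.157 (limma adjusted p = 0.00341).

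The members of this branch that rose were Hmgcs1 and Idi1. Hmgcs1 had 22.6 and 21.9 RPKM at 10–30 μm, 28.4 and 25.6 at 40–45 μm, 30.6 and 30.1 at 50–55 μm, then 34.3 and 30.6 RPKM at 60–65 μm. All later libraries of Hmgcs1 were above both libraries of the smallest class (log2 0.54 ± 0.111, limma adjusted p = 0.00297). Idi1, the isomerase of isopentenyl diphosphate, went from 1.36 and 1.41 to 2.23 and 2.0 RPKM (log2 0.57 ± 0.133, limma adjusted p = 0.00539). Fdft1 had 46.1 and 40.8 RPKM at 10–30 μm and 52.5 and 52.3 RPKM at 60–65 μm, and it missed the threshold (log2 0.27 ± 0.111, limma adjusted p = 0.0583). Fdft1 overlaps Ctsb on the opposite strand, which had 6.01 to 6.91 RPKM in growing oocytes. Npc1 likewise overlaps 3110002H16Rik (1.58 to 2.47 RPKM, higher at 60–65 than at 10–30 μm) and Srebf1 overlaps Rai1 (0.488 to 0.976 RPKM). The libraries kept strand, but whether strand was used in counting is not given in the sources used here.

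Among the sterol enzymes, which turn squalene into cholesterol, 5 of 9 tested fell (31.9% of all genes) and 2 rose (31.4% of all genes). Cyp51, lanosterol demethylase, had 1.93 and 1.79 RPKM at 10–30 μm, 1.41 and 1.43 at 40–45 μm, 1.12 and 1.11 at 50–55 μm, then 0.726 and 0.789 RPKM at 60–65 μm. Each class of Cyp51 lay wholly below the one before it, and GV had the least, 0.511 RPKM. The log2 fold change of Cyp51 over growth was -1.19 ± 0.110 (limma adjusted p = 4.25e-05). Sqle, squalene epoxidase and a rate-limiting step, had 2.64 and 3.11 RPKM at 10–30 μm and 1.27 and 1.30 RPKM at 60–65 μm, and it also fell class by class (log2 -1.10 ± 0.104, limma adjusted p = 4.73e-05). Nsdhl, a dehydrogenase of the demethylating complex, went from 3.76 and 3.77 to 2.24 and 2.40 RPKM (log2 -0.68 ± 0.0987, limma adjusted p = 0.00047).

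Smaller falls were measured for Tm7sf2 and Lss. Tm7sf2, a sterol reductase, had 1.83 and 1.61 RPKM at 10–30 μm and 1.08 and 1.22 RPKM at 60–65 μm (log2 -0.55 ± 0.15, limma adjusted p = 0.0122). Its call was lost without 10–30 μm A (log2 -0.41, limma adjusted p = 0.0734) and without 60–65 μm A (log2 -0.46, limma adjusted p = 0.0868). Tm7sf2 overlaps 1110014N23Rik on the same strand (2.02 to 3.11 RPKM in growing oocytes), so its reads are uncertain. Lss, lanosterol synthase, had 0.826 and 1.02 RPKM at 10–30 μm and 0.676 in both 60–65 μm libraries (log2 -0.39 ± 0.113, limma adjusted p = 0.0157). The call of Lss was lost without 10–30 μm B (log2 -0.30, limma adjusted p = 0.0831), 60–65 μm A (log2 -0.38, 0.0732) or 60–65 μm B (log2 -0.40, 0.0608), the latter fits with nearly the same fold.

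Lbr and Hsd17b7 rose, against the direction of the other called sterol enzymes. Lbr had 35.5 and 33.8 RPKM at 10–30 μm, 54.9 and 42.9 at 40–45 μm, 57.4 and 52.9 at 50–55 μm, then 59.1 and 60.9 RPKM at 60–65 μm (log2 0.79 ± 0.142, limma adjusted p = 0.0015). Lbr and Tm7sf2 encode reductases that can act on the same double bond of the sterol ring. At 60–65 μm the level of Lbr was 60.0 ± 1.24 RPKM and that of Tm7sf2 1.15 ± 0.101 RPKM (SD, n = 2). Hsd17b7, the ketone reductase of the demethylating complex, went from 5.21 and 5.62 to 7.36 and 8.01 RPKM (log2 0.50 ± 0.0908, limma adjusted p = 0.0016). Sc5d, a sterol desaturase, stayed between 6.88 and 8.87 RPKM (log2 -0.16 ± 0.121, limma adjusted p = 0.261). Dhcr7 gave log2 0.03 ± 0.277 (limma adjusted p = 0.924), an error that leaves changes of that size in either direction undetected.

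**Figure D2:**
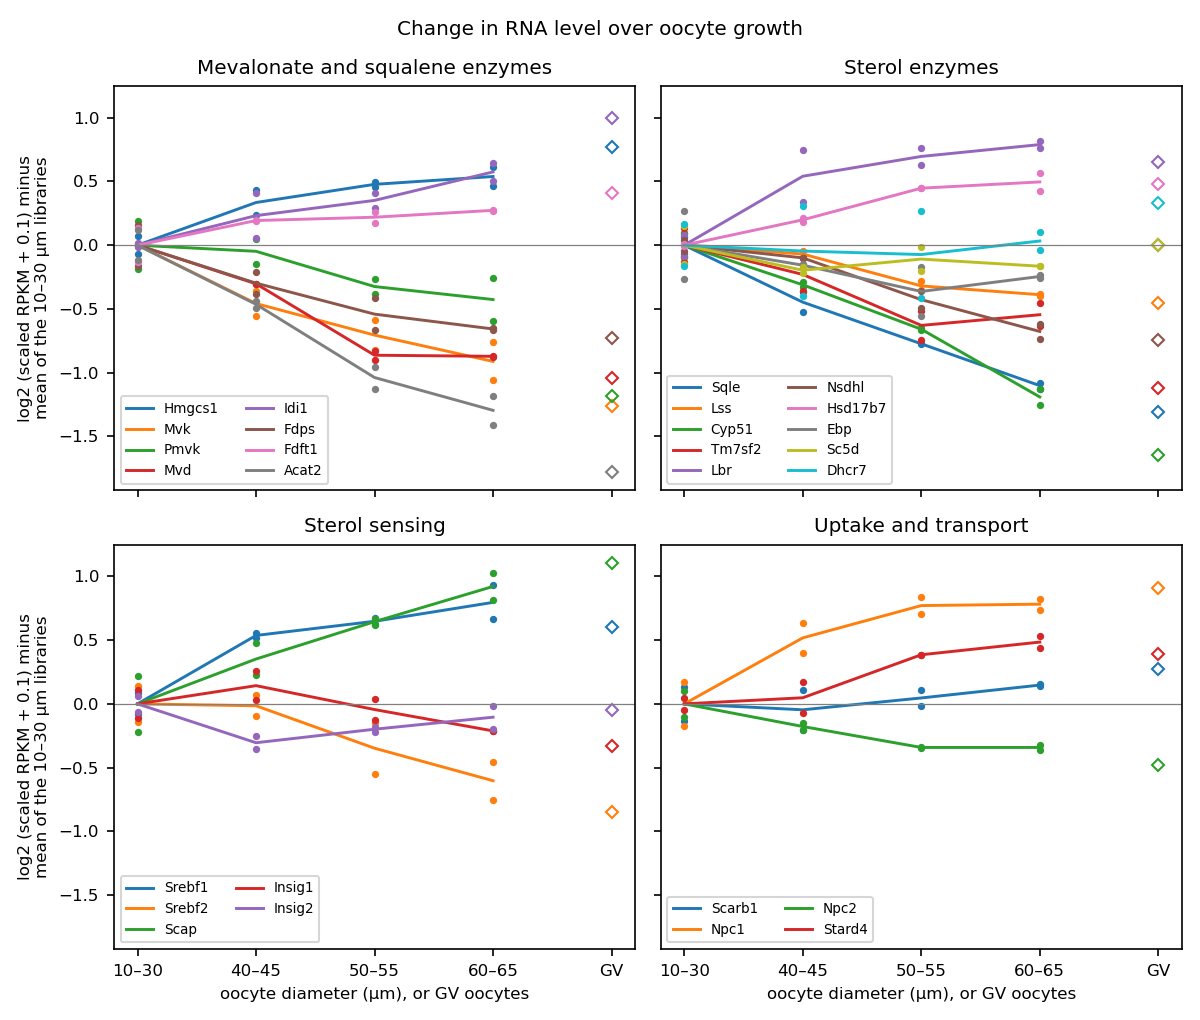
Log2 of scaled RPKM plus 0.1, relative to the mean of the 10–30 μm libraries, over the size classes and GV, in 4 panels by role. Points are libraries, lines join class means and open diamonds are the GV library. Acat2, Cyp51, Sqle and Mvd are the lowest of the tested members at 60–65 μm, and Scap, Srebf1, Lbr and Npc1 the highest.

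The sterol sensing genes moved apart. Scap had 12 and 17.4 RPKM at 10–30 μm, 16 and 19.7 at 40–45 μm, 21.7 and 22.7 at 50–55 μm, then 29.7 and 25.4 RPKM at 60–65 μm. Its smallest and largest classes did not overlap (log2 0.92 ± 0.157, limma adjusted p = 0.00111). The size of this rise rested in part on 10–30 μm A, without which it was log2 0.70, below Lbr at 0.87. Srebf1, which encodes an SREBP factor best known for fatty acid synthesis, rose from 4.29 and 5.15 to 9.10 and 7.46 RPKM (log2 0.80 ± 0.115, limma adjusted p = 0.000443). Srebf2, which encodes the SREBP factor of cholesterol synthesis, had 0.968 and 1.28 RPKM at 10–30 μm and 0.791 and 0.617 RPKM at 60–65 μm (log2 -0.60 ± 0.176, limma adjusted p = 0.0162). The call of Srebf2 was lost without 10–30 μm B (log2 -0.46, limma adjusted p = 0.0844) and without 60–65 μm B (log2 -0.45, limma adjusted p = 0.111), with the direction kept. At 60–65 μm Srebf1 had 8.28 ± 1.16 RPKM and Srebf2 0.704 ± 0.123 RPKM (SD, n = 2).

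Insig1, the highest member, had 91.6 and 84.0 RPKM at 10–30 μm, 98.7 and 87.8 at 40–45 μm, 88.0 and 78.9 at 50–55 μm, then 76.0 and 75.5 RPKM at 60–65 μm. Both 60–65 μm libraries were below all others of growing oocytes, yet the change missed the threshold (log2 -0.21 ± 0.125, limma adjusted p = 0.167). Its relative Insig2 had far less RNA, from 0.485 to 0.698 RPKM (log2 -0.10 ± 0.122, limma adjusted p = 0.476).

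Of the uptake and transport genes, Npc1 and Stard4 rose and Npc2 fell. Npc1, the membrane protein that passes cholesterol out of late endosomes, had 5.56 and 7.59 RPKM at 10–30 μm, 8.13 and 9.93 at 40–45 μm, 10.4 and 11.5 at 50–55 μm, then 11.7 and 10.9 RPKM at 60–65 μm (log2 0.78 ± 0.138, limma adjusted p = 0.00131). Npc2, the soluble protein that hands cholesterol to Npc1, went from 6.76 and 6.27 to 5.08 and 5.16 RPKM (log2 -0.34 ± 0.0991, limma adjusted p = 0.0156). Its call was lost without 10–30 μm A (log2 -0.24, limma adjusted p = 0.0735), 60–65 μm A (log2 -0.32, 0.0874) or 60–65 μm B (log2 -0.36, 0.0572), with similar folds in the last fits. Stard4, a carrier of sterols between membranes, went from 1.58 and 1.57 to 2.33 and 2.15 RPKM (log2 0.49 ± 0.113, limma adjusted p = 0.00549). Scarb1, the receptor for high-density lipoprotein, stayed between 0.797 and 1.13 RPKM (log2 0.15 ± 0.144, limma adjusted p = 0.392).

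**Figure D3:**
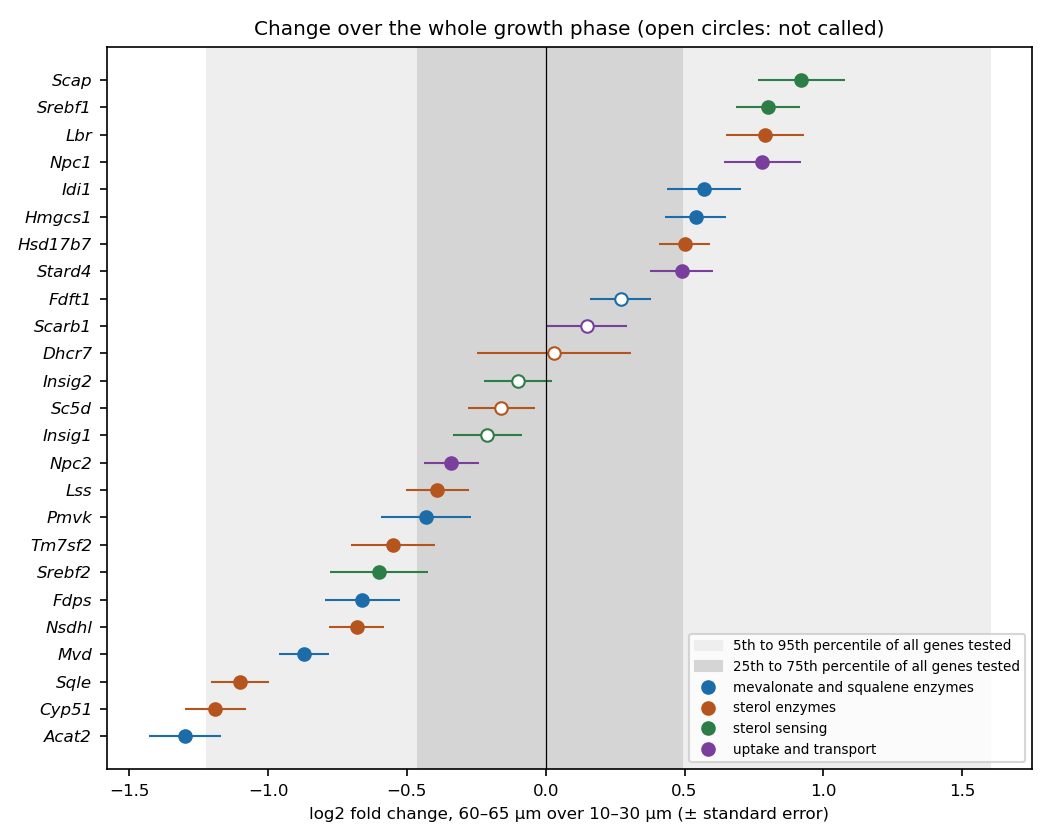
Log2 fold change of the 25 tested members from 10–30 to 60–65 μm with its standard error, coloured by role, over grey bands for all genes tested. Values run from -1.30 for Acat2 to 0.92 for Scap, and the 5th to 95th percentile of all genes from -1.22 to 1.60.

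Calls at single steps of growth were few in the fit used here and lay in the first 2 steps. A fit that pairs A and B across classes, a pairing no label gives, called more members at each step. In scaled RPKM both 60–65 μm libraries were below both 10–30 μm libraries in 13 tested members (41.7% of all genes) and above them in 10 (40.6% of all genes), among these Scarb1, whose deposited values overlap. Class means of scaled RPKM were lower at each of the 3 steps in 9 members (30.3% of all genes) and higher at each step in 9 others (30.3% of all genes), an order that was not tested and that counts steps as small as the last one of Mvd (log2 -0.01 ± 0.0895). From 10–30 to 40–45 μm limma called 3 members higher (12.7% of all genes) and 3 lower (10.4% of all genes). Lbr (log2 0.54), Srebf1 (log2 0.54) and Npc1 (log2 0.52) were the higher ones, and Acat2 (log2 -0.46), Sqle (log2 -0.45) and Mvd (log2 -0.30) the lower ones. From 40–45 to 50–55 μm Acat2 (log2 -0.57) and Mvd (log2 -0.56) fell again and no member was called higher, where 3.25% of all genes were called lower and 5.69% higher. At an unadjusted p below 0.05, 2 members were higher (15.0% of all genes) and 6 lower (13.7% of all genes). From 50–55 to 60–65 μm limma called 0 of 25 members and 0% of genes in either direction, and at an unadjusted p below 0.05 there were 0 members higher (7.05% of all genes) and 3 lower (6.6% of all genes).

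Of these 8 step calls, 0 held in every fit that left out 1 library, although the direction was kept: in the fits that lost the call the log2 values lay between 0.34 and 0.63 for the rises and between -0.30 and -0.66 for the falls. Without 40–45 μm A the first step had 0 members higher and 0 lower, and without 10–30 μm A it had 0 higher and 1 lower. It had 1 member higher without either 60–65 μm library, and 1 lower without 40–45 μm B or either 50–55 μm library. With no minimum on RPKM the first step had 1 member higher and the second 1 lower, and a fit on 2 classes alone gave the first 1 higher and 0 lower. The second step had 0 lower without 40–45 μm B, 50–55 μm A or 50–55 μm B, and 1 lower without 40–45 μm A or either 60–65 μm library. Over the whole of growth the fits without 1 library called 7 to 10 members lower and 8 or 9 higher, and the 7 came without 60–65 μm A.

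GV oocytes, with 1 column of values and so no test, lay close to the 60–65 μm class. No member differed from the mean of the 60–65 μm libraries by 2-fold in either direction, and 0.409% of all genes were at least 2-fold higher and 0.266% at least 2-fold lower. In 15 of 25 members GV was below both 60–65 μm libraries (39.4% of all genes), in 8 it was above both (41.5% of all genes) and in 2 between them. The furthest was Pmvk, at 1.17 RPKM in GV against 1.87 and 2.36 RPKM, a log2 difference of -0.77. Idi1 was highest above, at 2.79 RPKM against 2.23 and 2.0 RPKM (log2 0.43). Among members that had in GV their lowest value of the 9 libraries were Acat2 (0.676 RPKM), Cyp51 (0.511 RPKM), Tm7sf2 (0.715 RPKM) and Mvk (0.109 RPKM).

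A further list of 36 genes of sterol handling had 23 genes above the minimum, of which 12 were called higher (31.4% of all genes), 7 lower (31.9% of all genes) and 4 neither from 10–30 to 60–65 μm (limma). The largest rise was that of Lrp1, an endocytic receptor for lipoproteins (0.415 and 0.757 to 4.25 and 3.02 RPKM, log2 2.47). Next was Apoe, a lipoprotein component (0.341 and 0.384 to 1.98 and 2.08 RPKM, log2 2.20). Lrp1, Apoe and a further gene called higher met the minimum only through the larger classes, which favoured a rise. Abcg1, a sterol exporter (log2 1.47), and Nceh1, a cholesteryl ester hydrolase (log2 0.99), followed Lrp1 and Apoe. Among the genes called lower, Ggps1, which makes geranylgeranyl diphosphate, gave log2 -1.15, Cyp46a1, a cholesterol hydroxylase, gave log2 -1.03 and Stard5, a sterol carrier, gave log2 -0.84. No gene of this list averaged above 30 RPKM.

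The libraries carried the markers of oocytes throughout. The 10 oocyte markers summed to 3870 and 3920 RPKM at 10–30 μm and to 2970 and 3150 RPKM at 60–65 μm, and 6 of them were called lower (among them Figla, log2 -2.0, and Dppa3, log2 -1.20) and 2 higher. Of 12 granulosa cell markers 8 stayed below the minimum, among them Foxl2 (mean 0.0397 RPKM), Fshr (mean 0.124 RPKM) and Amh (mean 0.164 RPKM). The other 4 (Inha, Nr5a2, Esr2 and Cyp19a1) were called higher, of which Inha and Cyp19a1 passed the minimum only through the larger classes, so that their direction was set by the minimum, and the 12 summed to 2.86 and 3.06 RPKM at 10–30 μm and 13 and 11.6 RPKM at 60–65 μm. Of 10 theca and stroma markers, Col1a1, Col1a2 and Col3a1 were called lower and the others were below the minimum. Col1a2 and Col3a1 passed it only through the 10–30 μm libraries, which set their direction. Col1a1 also needed a 10–30 μm library to pass, since only 40–45 μm A (0.795 RPKM) reached 0.5 RPKM in the larger classes. The sums were 4.12 and 2.90 RPKM at 10–30 μm and 1.45 RPKM in both 60–65 μm libraries. Of 9 blood, immune and vessel markers found, Pecam1 alone passed the minimum, and it was called higher (sums 0.820 and 0.808, then 5.12 and 4.68 RPKM). The marker sums changed over the same size classes as the members, some up and some down, and their part in the members' values was not tested.

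DNA methylation at the gene starts was low. In the PBAT library of 60–65 μm oocytes the 25 members with at least 5 CpG cytosines of 5 or more reads within 500 bp of the start had a median of 3.33% methylation, from 0.454% (Fdps) to 8.20% (Mvk). The median over 9414 expressed genes was 3.20%, and 6.62% of them had 10% or more. In RRBS, 18 members were measured at the start in all 6 libraries, and the median over members lay between 0.293% and 0.696% in each library. The highest single value was 6.88%, for Mvk in 40–45 μm B, where the A library had 0.109%. Hmgcs1, whose promoter is printed above, had 0.647 and 0.321% at 40–45 μm and 0.239 and 2.55% at 60–65 μm.

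Gene bodies, taken from 2 kb after the start to the end of the gene, differed widely between members. In PBAT the median over the 26 members with at least 10 CpG cytosines was 42.4%, with 10 members at 50% or more, and that over 8922 expressed genes was 50.4%, with 50.9% of them at 50% or more. Pooled over calls, Lss had 74.7% (95% Wilson interval 72.4 to 76.8%, 1490 calls) and Hsd17b7 69.2% (63.9 to 74.1%, 312 calls). Acat2 had 66.5% (58.7 to 73.4%, 155 calls) and Fdps 63.7% (58.0 to 69.1%, 284 calls). At the low end were Ebp with 13.2% (8.97 to 19.1%, 174 calls), Hmgcs1 with 15.2% (12.1 to 19.1%, 400 calls), Insig2 with 23.7% (20.4 to 27.5%, 552 calls) and Insig1 with 24.5% (16.9 to 34.0%, 94 calls). Intervals cover counting error in 1 library, and neighbouring cytosines share reads. Hmgcs1, Insig1 and Fdft1 (25.2%) combined low body methylation with high RNA levels, whereas Lbr (50.7%) and Scap (57.5%), the other members above 10 RPKM, had more, and Lss, the most methylated member, averaged 0.783 RPKM.

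**Figure D4:**
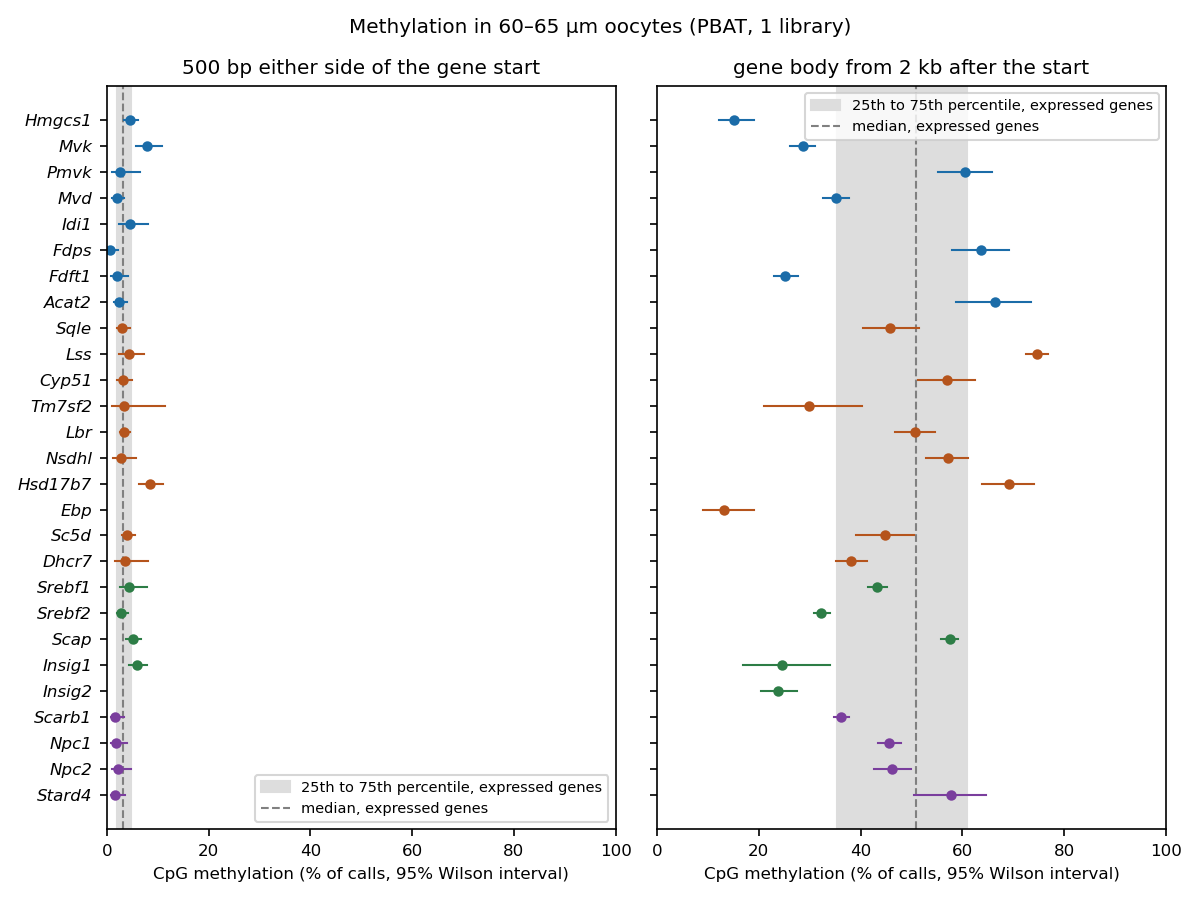
CpG methylation of each member in the PBAT library of 60–65 μm oocytes, within 500 bp of the gene start (left) and in the gene body (right), as percent of calls with 95% Wilson intervals. The grey band and dashed line give the same measure over expressed genes; the members measured are below 10% at the start, and bodies run from 13.2% (Ebp) to 74.7% (Lss).

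RRBS followed 12 members' bodies through growth, with at least 5 cytosines in each of the 6 libraries. Both 60–65 μm libraries were above both 40–45 μm libraries in 11 of the 12, as in 89.4% of 3586 expressed genes, and with 2 libraries a class no test was made. Lss had 2.03 and 3.75% at 40–45 μm, 41.3 and 25.5% at 50–55 μm, then 73.9 and 78.2% at 60–65 μm. Lbr had 1.34 and 4.63%, then 21.1 and 24.6%, then 49.2 and 51.4%. Lbr gained RNA and Lss lost RNA over growth, and both gained methylation. Gains were smaller in Fdft1, with 0.608 and 0.260% at 40–45 μm and 12.8 and 14.4% at 60–65 μm, and in Mvk, with 3.01 and 3.70% and then 12.6 and 19.8%. The exception to the separation was Insig2, whose classes overlapped (0.815 and 0.204% at 40–45 μm, 0.676 and 8.90% at 60–65 μm).

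**Figure D5:**
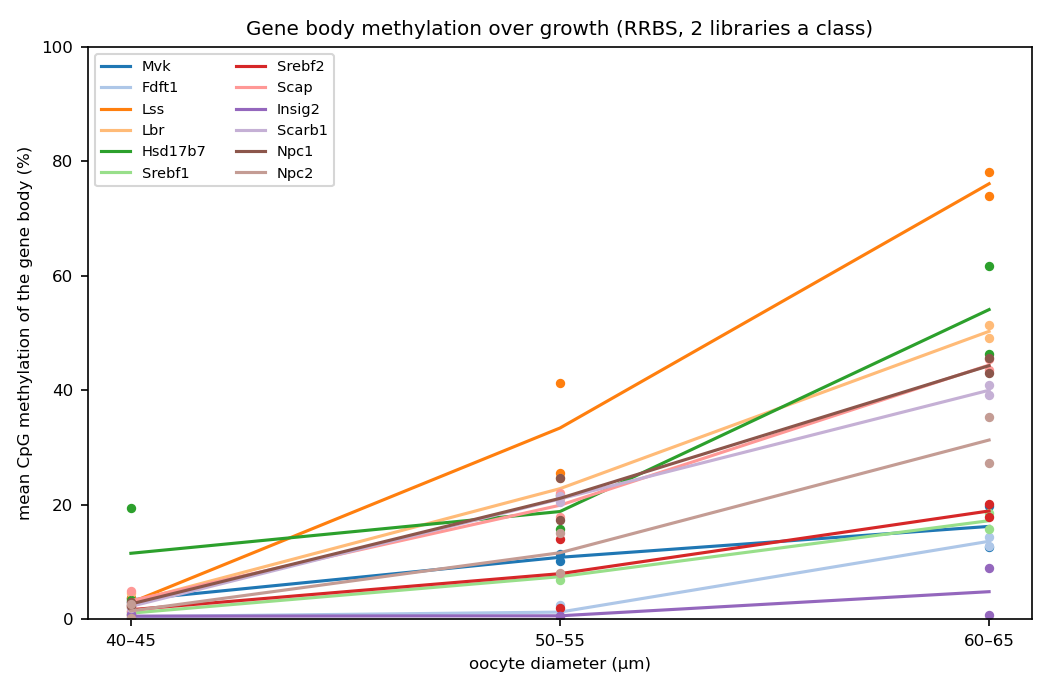
Mean CpG methylation of the gene body in RRBS for the 12 members measured in all 6 libraries, against size class. Points are libraries and lines join class means; Lss ends highest (73.9 and 78.2%) and Insig2 lowest (0.676 and 8.90%).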

How the data were processed

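Reads were trimmed by the authors with Trim Galore (0.2.8 for RNA-seq and 0.3.5 for bisulphite libraries, per the study's methods) and aligned to GRCm38, RNA-seq with TopHat2 2.0.9 and bisulphite reads with Bismark (0.14.0 for RRBS, 0.10.0 for PBAT). The deposited RNA table holds RPKM values per gene; whether Cufflinks or SeqMonk, both named in the methods, made it is not stated. The deposited methylation files give, per CpG cytosine, the percent methylated and the count of methylated and unmethylated calls, with replicates kept apart. Columns of the RNA table that matched no sample numbered 0.

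RPKM values were scaled by a trimmed mean (factors from 0.9569 to 1.049), taken as log2(RPKM + 0.1) and tested with limma 3.58.1 in R 4.3.3 (trend in the variance prior, Benjamini-Hochberg adjustment over the 10518 genes that reached 0.5 RPKM in 2 libraries, threshold 0.05). The fit used all 8 libraries of growing oocytes, with a mean per size class; levels in the text are deposited values, unscaled. The code was tested on simulated data. Total reads are not given. From the steps between low values, depths of the 9 libraries relative to 10–30 μm A ran from 1.00 to 2.00, and whole reads (tolerance 0.02) were recovered for 21 members. Bisulphite libraries held from 30000113 (RRBS, 60–65 μm B) to 99039028 calls (PBAT). Cytosines needed 5 reads, start regions 5 positions, and gene bodies 10 positions in PBAT and 5 in RRBS; RRBS bodies were added after the data were seen.

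The 27 members, the lists of other genes and of markers, and the tests were chosen with earlier results of these data known. Every member was described. Of the other pathway genes, those called from 10–30 to 60–65 μm with the 4 largest changes each way were named, and any above 30 RPKM on average. A gene that this rule would name is not reported here. Alternatives were other pseudocounts, no minimum, no scaling, no trend, fits on 2 classes, a replicate block, other read minimums and leaving out each library.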

Additional observations from a re-analysis of the deposited data

How the results depend on the processing

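Of the 19 members called from 10–30 to 60–65 μm, 14 were called in each of 15 alternative settings, and 0 of 285 values changed sign; the 18 lost calls were those of Lss, Npc2, Pmvk, Srebf2 and Tm7sf2. With no filter on low values, 1 member was called higher from 10–30 to 40–45 μm and 1 lower from 40–45 to 50–55 μm, where the median log2 fold change was -0.164. A fit on the 2 size classes only called 1 higher and 0 lower from 10–30 to 40–45 μm. With no further scaling the median log2 fold change was -0.098 from 10–30 to 40–45 μm and 0.04 from 50–55 to 60–65 μm. The fit with no filter added Mvk (log2 -0.25) and Ebp (log2 -0.21) from 40–45 to 50–55 μm. Without scaling the median over all genes was -0.071 from 10–30 to 40–45 μm and 0.034 from 50–55 to 60–65 μm. The cause of the changed calls was not tested.

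Leaving out single libraries gave 0 to 3 members higher and 0 to 3 lower from 10–30 to 40–45 μm (median log2 -0.096 to 0.023), 0 to 2 lower from 40–45 to 50–55 μm (median -0.102 to -0.017), a median of -0.013 to 0.027 from 50–55 to 60–65 μm, and 7 to 10 members lower and 8 to 9 higher from 10–30 to 60–65 μm (median -0.296 to -0.101).

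The letters A and B were shared between classes without a stated pairing. Differences between A and B correlated at 0.596, 0.588 and 0.67 among the 3 smaller classes, but at -0.227, -0.0255 and 0.113 between these and 60–65 μm, so the letters were not taken as pairs. A fit with the replicate block called 1 member higher (Stard4) and 4 lower (Sqle and Nsdhl added) from 40–45 to 50–55 μm and 1 lower (Cyp51, log2 -0.53) from 50–55 to 60–65 μm. It called 4 higher and 4 lower from 10–30 to 40–45 μm, and 9 higher and 11 lower over the whole of growth, the added one being Fdft1 (log2 0.27, limma adjusted p = 0.0341).

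With a minimum of 1 or 10 reads per cytosine the PBAT median was 41.0 or 38.5% for gene bodies and 3.97 or 2.45% for starts, and the RRBS median for starts at 60–65 μm was 0.623 or 0.788%. Leaving out a library gave start medians of 0.368 to 0.554% at 40–45 μm, 0.293 to 0.696% at 50–55 μm and 0.448 to 0.525% at 60–65 μm. Ebp, Mvk and Dhcr7 had the fewest reads of the 21 members with whole reads recovered, and Dhcr7 also differed between A and B. Methylation values of RRBS starts rest on as few as 5 cytosines.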
